A study of Physcomitrium patens with 3 samples.

Results

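The long loci described here were the 294 of 39975 double-stranded RNA loci that lay on scaffolds numbered under 500 and spanned over 1000 bp, with length taken from the start and end of each locus. They made up 0.762% of the 38566 loci on those scaffolds. The rule uses only the scaffold number and the length of a locus and no read count. Scaffold numbers under 500 stand for the nuclear genome here. No sequence or annotation of these scaffolds was used, so the nuclear origin of single loci was not tested. Each locus is given by its cluster name and its place on the scaffold as the deposited tables give them, in a genome build that the sources used here do not name.

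The series holds 3 libraries of double-stranded RNA from the moss Physcomitrium patens (Physcomitrella), taken from protonemata, its young filamentous tissue, at 10 days of age. They come from the rdr2 mutant, the rdr6 mutant and wild type, with 1 library each. Alleles, line numbers and further transgenes are not given in the labels. All 3 were grown alike on medium with ammonium tartrate under long days, and no treatment was given. The mutated genes encode RNA-dependent RNA polymerases, which copy a single-stranded RNA into a double strand. The comparisons ask how much of the double-stranded RNA at each locus is seen when either enzyme is mutated.

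RNase One digests single-stranded RNA, and the RNA that remains is paired, either between separate strands or within a strand that folds back on itself. In plants, RDR2 acts in the pathway that makes heterochromatic small interfering RNAs from transposons and repeats. RDR6 acts in the pathway that makes trans-acting small interfering RNAs from cleaved transcripts. A Dicer-like enzyme cuts the double strands of both pathways into small RNAs. Paired RNA also arises without either polymerase, for example from inverted repeats, from overlapping sense and antisense transcripts, and from structured RNAs.

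The library totals were 9703597 reads in rdr2, 9346061 in rdr6 and 6992269 in wild type, so that 1 read corresponded to 0.103, 0.107 and 0.143 RPM (reads per 1000000 library reads) in these libraries. With 1 library per genotype, no difference below has a replicate check. Higher and lower therefore describe these libraries, and no p-value was computed. Exact Clopper-Pearson 95% intervals stand in brackets after shares and ratios. They cover counting error only, and reads amplified by PCR without molecular identifiers are not independent molecules. In tissue samples like these, fewer cells that hold an RNA and less of that RNA per cell cannot be told apart. The rdr2 library is called so after its label, although the name of its deposited table has a different rdr number. Neither RDR gene could be looked up, since the loci carry no gene names, so the genotypes were not checked in the reads.

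The long loci ranged from 1001 to 12933 bp, with a median of 1354.5 bp. Of these, 185 were at most 1500 bp long, 61 were over 1500 and up to 2000 bp, 30 were over 2000 and up to 3000 bp, and 18 were over 3000 bp. Their summed length of 501.594 kb was 17.96% of all bases in loci on scaffolds under 500. They lay on 166 of 485 scaffolds, 99 of which held 1 member each, and no scaffold held more than 7. Shorter loci on the same scaffolds numbered 2957 of over 200 and up to 1000 bp, 7122 of over 30 and up to 200 bp and 28193 of 30 bp or less.

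A read was seen at 251 long loci in rdr2 (85.4%, 80.8 to 89.2), at 283 in rdr6 (96.3%, 93.4 to 98.1) and at 276 in wild type (93.9%, 90.5 to 96.3). The 43 long loci with no read in rdr2 compare with 11 in rdr6 and 18 in wild type, although the rdr2 library was the deepest. When the 2 mutant libraries were thinned to the summed locus reads of wild type, the expected number of loci with a read was 247.0 in rdr2 and 278.1 in rdr6, against 276 in wild type. Sums of reads do not match the depth at typical loci, so the libraries were also thinned to the smallest effective total by TMM, by median-of-ratios and by reads outside the top 1% of loci, which are other ways to scale the libraries. The expected numbers were then 251 in rdr2 each time, 271.5, 269.6 and 267.1 in rdr6, and 271.7, 269.6 and 268.3 in wild type. Rdr2 thus had the fewest long loci with a read in every case, while rdr6 and wild type were level under these 3 scalings.

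Of the 294 long loci, 248 had reads in all 3 libraries and 6 had none in any. Another 24 had reads in rdr6 and wild type and none in rdr2, the most frequent pattern of partial detection. The reverse pattern, reads in rdr2 and none in either rdr6 or wild type, was found at 1 locus. Over all 39975 loci a read was seen at 21.6% in rdr2, 32.7% in rdr6 and 28.9% in wild type. Fewer loci with a read in rdr2 were thus not particular to the long loci. A library without a read at a locus still allows up to 3 reads there, which is 0.309 RPM in rdr2, 0.321 RPM in rdr6 and 0.429 RPM in wild type.

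**Figure D1:**
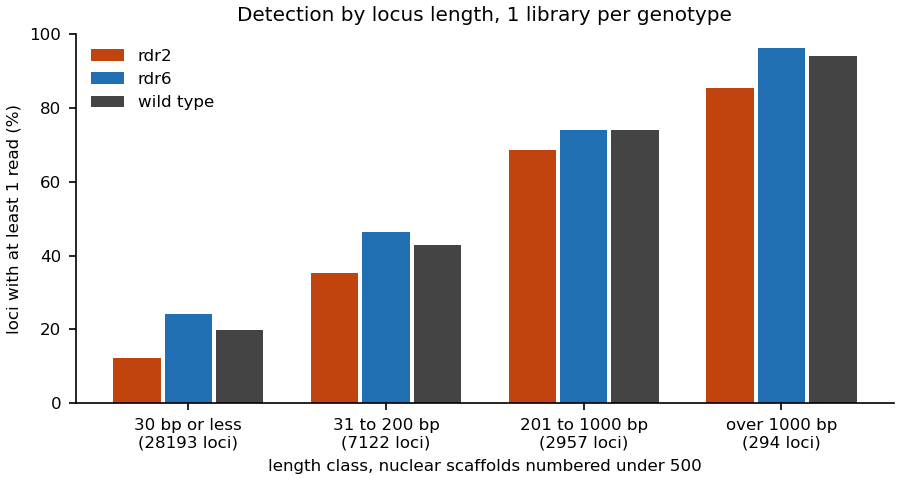
Share of loci with at least 1 read (percent, bars) in 4 length classes on scaffolds numbered under 500, in rdr2, rdr6 and wild type, 1 library each. The long loci at the right reach 85.4% in rdr2, 96.3% in rdr6 and 93.9% in wild type, and each shorter class is lower in all 3 libraries.

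Among the long loci, rdr2 lay below both other libraries at each of the read minimums of 1, 3, 10, 20, 100 and 1000. These counts were neither thinned nor scaled, and rdr2 had the smallest effective total under each of the other scalings. At 1000 or more reads the numbers were only 8 in rdr2, 9 in rdr6 and 9 in wild type. At 20 or more reads, 202 long loci were seen in rdr2, 225 in rdr6 and 230 in wild type. At 100 or more reads, 77 were seen in rdr2, 124 in rdr6 and 114 in wild type. The plot of detection by length shows that shorter loci were seen less often. Those of over 200 and up to 1000 bp had a read at 68.7% in rdr2, 73.9% in rdr6 and 74.0% in wild type. A longer locus offers more bases for a read to fall on, so shares of detection were not compared further across lengths.

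Reads per kb of locus remove that effect of length. The median over the 294 long loci was 32.2 reads per kb in rdr2 (quartiles 10.5 and 73.1), 53.3 in rdr6 (14.0 and 117.5) and 50.5 in wild type (17.5 and 114.1). Scaled to the library totals, the medians were 3.31, 5.70 and 7.23 RPM per kb in rdr2, rdr6 and wild type. Scaled by reads outside the top 1% of loci, with wild type kept at 7.23, the median was 8.55 in rdr2 and 5.35 in rdr6, so the place of rdr2 below wild type turned. Loci of over 200 and up to 1000 bp had medians of 1.35, 3.03 and 3.16 RPM per kb in the same order of libraries. The long loci were thus also denser in reads than the next shorter class in each library, without a test of that difference. Loci with no read are included in these medians, and they were a larger share of the shorter class in each library. How the ends of a locus were set is not known, so length and density may not be independent.

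Density did not keep growing with length among the long loci themselves. In the 185 loci of up to 1500 bp the medians were 3.65 RPM per kb in rdr2, 6.68 in rdr6 and 8.04 in wild type. In the 30 loci over 2000 and up to 3000 bp the medians were 2.24 in rdr2, 4.58 in rdr6 and 5.04 in wild type. In the 18 loci over 3000 bp they were 0.0247 in rdr2, 0.342 in rdr6 and 0.301 in wild type. These longest loci were the sparsest in every library, and 11 of the 18 had a read in rdr2, against 17 in rdr6 and 16 in wild type. The limit of 3000 bp was chosen after the values were seen.

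**Figure D2:**
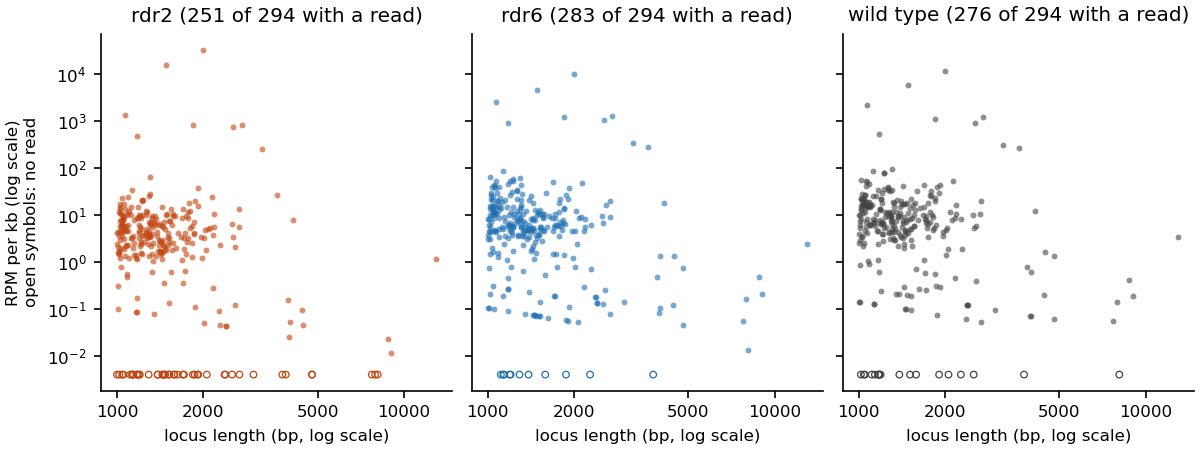
RPM per kb of each of the 294 long loci against its length in rdr2, rdr6 and wild type, both axes logarithmic, 1 library per panel. The median is 3.31 in rdr2, 5.70 in rdr6 and 7.23 in wild type, and most loci over 3000 bp lie below these medians. Open symbols at the bottom stand for no read.

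The plot of density against length also shows how far single loci stood above the rest. Cluster_15461, 1993 bp on scaffold_73 from 18441 to 20433, had 640202 reads in rdr2, 192323 in rdr6 and 165433 in wild type. Cluster_34997, 1488 bp on scaffold_334 from 24720 to 26207, had 225848 reads in rdr2, 64400 in rdr6 and 61755 in wild type. Together they held 89.3% of the reads of all long loci in rdr2, 60.0% in rdr6 and 65.4% in wild type. What these 2 loci hold, ribosomal or organellar sequence included, was not tested, and every share and sum over all long loci includes them. Both were highest in rdr2, by 2.79-fold over wild type (2.77 to 2.80) at Cluster_15461 and by 2.64-fold (2.61 to 2.66) at Cluster_34997. In rdr6 their ratios to wild type were 0.870 and 0.780. Per length, Cluster_15461 reached 321225 reads per kb in rdr2, 96499 in rdr6 and 83007 in wild type.

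By RPM, the sum over all long loci lay above wild type in rdr2 while the median long locus lay below it. All 294 together had 969401 reads in rdr2, 427869 in rdr6 and 347438 in wild type, which is 11.1%, 5.30% and 5.86% of the reads in loci of those libraries. The summed RPM in rdr2 was 2.01 times that of wild type (2.003 to 2.018). Without the 2 loci with most reads, the remaining 292 had 103351 reads in rdr2, 171146 in rdr6 and 120250 in wild type, and rdr2 was then 1.61-fold lower than wild type by RPM (1.60 to 1.63). The other scalings put the sum of these 292 above wild type in rdr2, at 1.24 times by TMM, 1.44 by median-of-ratios and 1.60 by reads outside the top 1%. With all 294, they gave 4.01, 4.68 and 5.18 times. The direction of the sum without the 2 loci thus rests on the scaling.

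In rdr6 the summed RPM ratio to wild type was 0.921 with all 294, 1.065 without the 2 loci with most reads and 0.867 without the 9 with most reads. Without the 2 loci, TMM gave 1.002, median-of-ratios 1.045 and reads outside the top 1% 0.998. The sum in rdr6 thus stayed close to wild type and its direction turned with the loci included.

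Of the next 7 loci by reads, 6 had an RPM ratio to wild type between 0.603 and 0.918 in rdr2. Cluster_28021, 2719 bp on scaffold_202 from 281341 to 284059, had 21633 reads in rdr2, 32890 in rdr6 and 23488 in wild type. Its RPM ratio to wild type was 0.664 in rdr2 and 1.05 in rdr6. Cluster_34995 and Cluster_34994, on the same scaffold as Cluster_34997, had ratios of 0.812 and 0.603 in rdr2 and of 1.11 and 1.13 in rdr6. Cluster_26076 and Cluster_26074 on scaffold_175 had ratios of 0.738 and 0.814 in rdr2 and of 1.14 and 1.12 in rdr6. Counting error is small at these loci, and their differences between rdr2 and wild type are smaller than the shift that another scaling of the libraries gave.

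Cluster_23998 began at the very start of scaffold_149 and ended at 1175. It had 5495 reads in rdr2, 10293 in rdr6 and 4311 in wild type, and in rdr6 was at 1.79 times the wild-type level (1.72 to 1.85). Cluster_7534 was the exception among these abundant loci. It spans 3613 bp on scaffold_27 from 1816376 to 1819988 and had 939 reads in rdr2, against 9656 in rdr6 and 6714 in wild type, which put rdr2 9.92-fold below wild type (9.27 to 10.6). With all 9 of these loci set aside, a choice made after their values were seen, the other 285 were 2.16-fold lower in rdr2 than in wild type by RPM (2.12 to 2.20). Their summed log2 ratio of -1.11 became -0.11 by TMM, 0.11 by median-of-ratios and 0.26 by reads outside the top 1%, so this direction too turned with the scaling.

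Short loci beside the abundant ones did not always share their pattern. Cluster_26075, 123 bp long, lay between Cluster_26074 and Cluster_26076 and had 435 reads in rdr2, 2483 in rdr6 and 1169 in wild type, a log2 ratio of rdr2 to wild type of -1.90. Cluster_34993, 127 bp long, lay 681 bp from Cluster_34994 and had 744 reads in rdr2, 5222 in rdr6 and 2783 in wild type, a log2 ratio of -2.38. The long loci next to them had log2 ratios between -0.73 and -0.30 in rdr2. Cluster_34998, 748 bp long and 2225 bp from Cluster_34997, had 15873 reads in rdr2, 18430 in rdr6 and 14387 in wild type. Its log2 ratio of rdr2 to wild type was -0.33 by RPM, against 1.40 at the long locus beside it. Another scaling moves both ratios alike, so the direction of Cluster_34998 rests on the scaling while the distance between the 2 loci does not.

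Ratios of single loci were taken for the 241 long loci with 20 or more reads over the 3 libraries, which is 82.0% of them. The other 53 are left out of what follows. A locus was counted as lower or higher when it differed by 4-fold or more and its whole interval lay past 2-fold. In rdr2 against wild type, 37 of 241 (15.4%) were lower and 0 were higher. Over all 3763 loci of the series with as many reads, 26.2% were lower and 0.505% were higher, so the share of long loci that were lower was under the background. The median log2 ratio of the long loci was -1.13 (-1.23 to -1.05), against -1.41 over all loci, and 232 of the 241 lay below equal level. Loci of over 200 and up to 1000 bp had a median of -1.26 and 17.3% lower, and those of over 30 and up to 200 bp a median of -1.75.

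How many long loci were lower in rdr2 depended on how the libraries were scaled. Scaling by TMM gave 12 lower and 2 higher, median-of-ratios size factors gave 9 and 4, and reads outside the top 1% of loci gave 8 and 5. As shares these were 4.98% and 0.830%, 3.73% and 1.66%, and 3.32% and 2.07%. Over all loci the shares were 8.88% and 2.10%, 6.94% and 2.82%, and 5.77% and 3.45%. The long loci thus lay under the background in both directions, with few loci behind each share. These scalings moved the median of all loci to -0.41, -0.19 and -0.04, and that of the long loci to -0.14, 0.088 and 0.23. A scaling moves all loci alike, so the long loci stood above the median of all loci by the same amount under each. The direction of a long locus near the median in rdr2 therefore turns with the scaling, while the loci named next as lower in rdr2 had negative log2 ratios under every scaling tried.

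No long locus passed the limits upwards in rdr2 by RPM, and few lay above wild type at all. Cluster_23388 on scaffold_141 had 92 reads in rdr2, 85 in rdr6 and 34 in wild type, a ratio of rdr2 to wild type of 1.95 (1.30 to 2.98). Cluster_13211 on scaffold_58 had 248 reads in rdr2, 122 in rdr6 and 103 in wild type, a ratio of 1.74 (1.37 to 2.20). Cluster_21831 on scaffold_125 had 220 reads in rdr2, 91 in rdr6 and 98 in wild type, a ratio of 1.62 (1.27 to 2.07). These and the 2 loci with most reads are the ones that other scalings counted as higher, the log2 ratio of Cluster_15461 being 1.48 by RPM and 2.48 by TMM, and that of Cluster_34997 1.40 and 2.39.

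**Figure D3:**
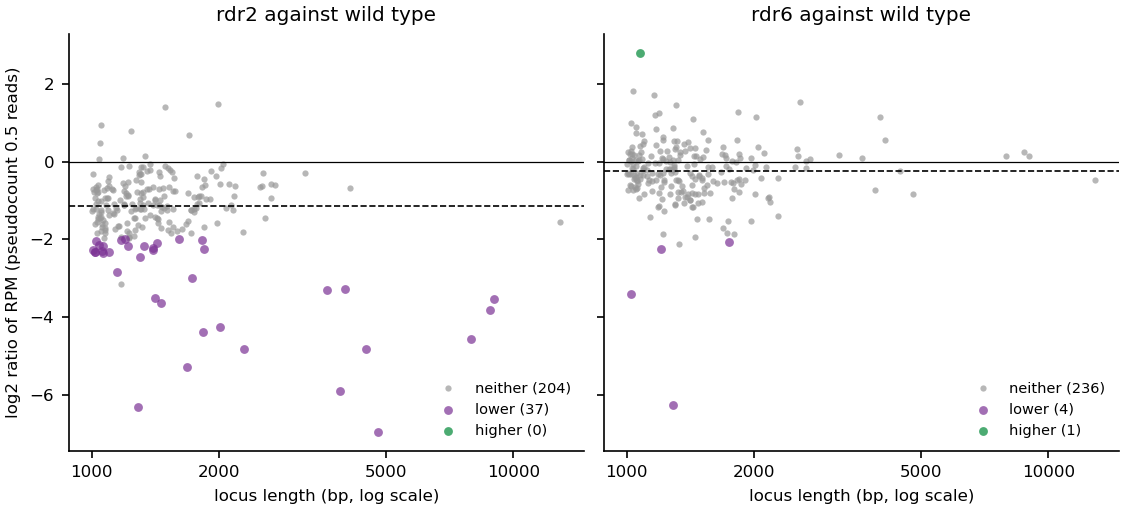
Log2 ratio of RPM to wild type (vertical axis) of the 241 long loci with 20 or more reads against locus length (log axis), for rdr2 on the left and rdr6 on the right. Solid lines mark equal level and dashed lines the medians of -1.13 and -0.23; 37 loci are lower in rdr2, among them 8 of the 11 over 3000 bp, while 4 are lower and 1 is higher in rdr6.

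Cluster_28339, on scaffold_207 from 621524 to 623207, was the lowest in rdr2 by the bound of its interval. It had 18 reads in rdr2, against 794 in rdr6 and 515 in wild type, a 39.7-fold lower level in rdr2 than in wild type (24.9 to 67.5). Its log2 ratio was -5.27 and reached -3.91 under the scaling that moved it most. Cluster_28338, 606 bp long and 259 bp away, had 3 reads in rdr2, 149 in rdr6 and 69 in wild type and was lower as well.

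Cluster_14694, on scaffold_68 from 478388 to 479797, had 24 reads in rdr2, 343 in rdr6 and 199 in wild type and was 11.5-fold lower in rdr2 than in wild type (7.51 to 18.4). Cluster_16911, 4459 bp on scaffold_83 from 387637 to 392095, had 2 reads in rdr2, 57 in rdr6 and 50 in wild type. Its ratio was 34.7-fold lower (9.12 to 294). In each of these loci rdr6 and wild type stood close together and rdr2 apart from them.

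Cluster_5379, 4778 bp on scaffold_18 from 1579747 to 1584524, had no read in rdr2, 33 in rdr6 and 44 in wild type, which is at least 20.4-fold lower in rdr2 against a floor of 3 reads, with an exact interval that begins at 15.9-fold. Cluster_30994, on scaffold_250 from 445628 to 449501, had no read in rdr2, 17 in rdr6 and 21 in wild type, at least 9.71-fold lower, with an interval from 7.23-fold. Cluster_29365, Cluster_9999 and Cluster_8400 had between 1 and 5 reads in rdr2, 15 to 37 in rdr6 and 20 to 49 in wild type. With so few reads in rdr2 their intervals were wide, such as 5.45 to 43.7 around the 13.6-fold of Cluster_9999.

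**Figure D4:**
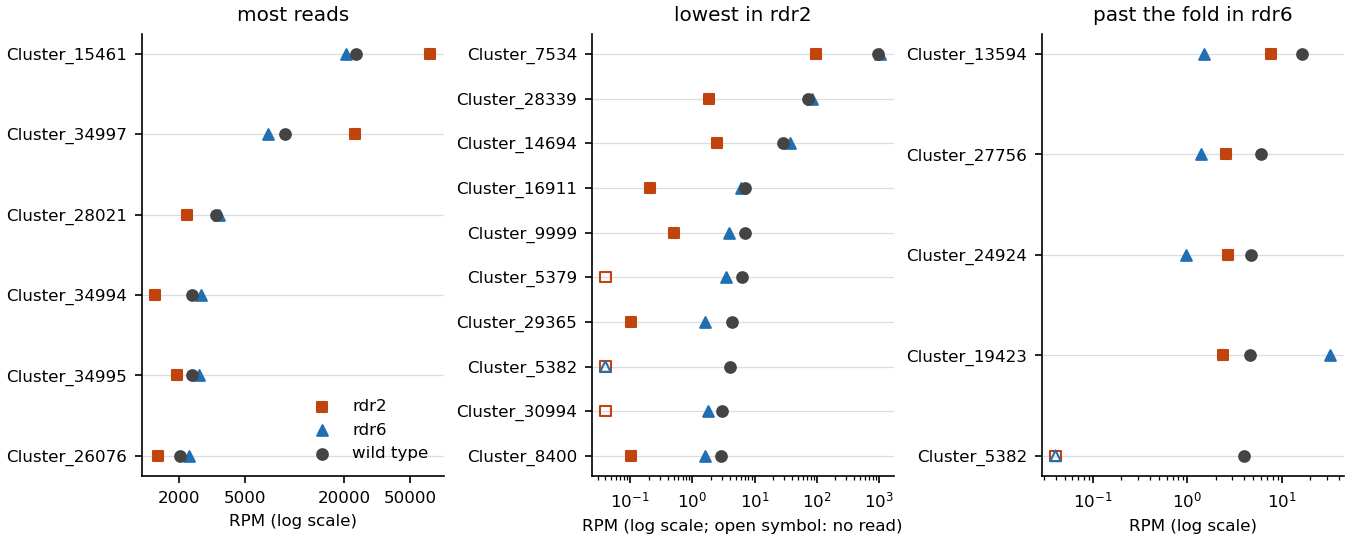
RPM (log axes) in rdr2, rdr6 and wild type of the 6 long loci that are among the 5 with most reads in any library, the 10 lowest in rdr2 and the 5 past the fold limits in rdr6, with open symbols for no read. Cluster_15461 and Cluster_34997 are highest in rdr2, and in the middle panel rdr2 lies leftmost at each locus, level with rdr6 at Cluster_5382.

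The lower loci in rdr2 were unevenly spread over length. They were 21 of 162 loci of up to 1500 bp, 6 of 49 over 1500 and up to 2000 bp, 2 of 19 over 2000 and up to 3000 bp, and 8 of 11 over 3000 bp. In the same 4 classes the median log2 ratio of rdr2 to wild type was -1.14, -1.13, -0.64 and -3.53, where 3 of the 11 longest had no read in rdr2. With these 3 set at their floor the last median was -3.28. Other scalings left 5, 4 and 3 of the 11 lower by TMM, median-of-ratios and the reads outside the top 1%. In rdr6 the 4 medians were -0.27, -0.45, -0.13 and 0.14, without a comparable drop at the longest loci.

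The 5 longest loci give the detail. Cluster_26593, 12933 bp on scaffold_182 from 642869 to 655801, had 145 reads in rdr2, 296 in rdr6 and 306 in wild type. Cluster_33039, 9007 bp on scaffold_287 from 353365 to 362371, had 1 read in rdr2, 18 in rdr6 and 12 in wild type. Cluster_21351, 8778 bp on scaffold_120 from 1013258 to 1022035, had 2 reads in rdr2, 40 in rdr6 and 25 in wild type. Rdr2 was 16.7-fold lower than wild type at Cluster_33039 (2.46 to 712) and 17.3-fold lower at Cluster_21351 (4.33 to 151), while the log2 ratio of Cluster_26593 was -1.55 in rdr2 and -0.47 in rdr6.

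Cluster_35839, 7924 bp on scaffold_356, had no read in rdr2, 12 in rdr6 and 8 in wild type, at least 3.70-fold lower in rdr2 against the floor of 3 reads. Counting error in the 8 wild-type reads is not in that bound, and the exact interval begins at 2.37-fold. Cluster_28564, 8091 bp on scaffold_211, had 1 read in rdr6 and none in rdr2 or wild type, and no ratio was taken.

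Length and sparseness went together, so the long loci were also divided by their reads per kb in rdr6, a library that does not enter the ratio of rdr2 to wild type. These class limits were set with the values known. The 56 loci with at most 5 reads per kb in rdr6 had 36 reads in rdr2, 187 in rdr6 and 180 in wild type, and rdr2 was 6.94-fold lower than wild type (4.83 to 10.2). The 25 loci with over 5 and up to 20 reads per kb had 386 reads in rdr2 and 798 in wild type, 2.87-fold lower in rdr2 (2.54 to 3.25). The 54 loci with over 20 and up to 50 reads per kb had 2274 reads in rdr2 and 3266 in wild type, and the 116 with over 50 and up to 200 had 10277 and 14773.

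Rdr2 was 1.99-fold lower than wild type in both of these classes, with intervals of 1.89 to 2.10 and 1.945 to 2.046. The 43 loci with over 200 reads per kb, which include Cluster_15461 and Cluster_34997, had 956428 reads in rdr2 and 328421 in wild type, 2.10 times wild type in rdr2.

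Of the 5 classes, the sparsest was the furthest below wild type in rdr2 as a sum. In it a read was seen in rdr2 at 16 of the 56, against 45 in rdr6 and 38 in wild type. On the log2 scale the sum of these 56 was -2.79 by RPM, -1.80 by TMM, -1.57 by median-of-ratios and -1.43 by reads outside the top 1%. In the class with over 5 and up to 20 reads per kb it was -1.52, -0.52, -0.30 and -0.15 under the same scalings. In the class with over 50 and up to 200 it was -0.996, 0.00068, 0.22 and 0.37, so that rdr2 there was level with or above wild type under the other scalings. Most of the 56 sparsest loci could not be examined singly, because 51 of them had under 20 reads. The 5 examined, all lower in rdr2, were Cluster_5382, Cluster_21351, Cluster_30994, Cluster_33039 and Cluster_35839. In that order they had 28, 25, 21, 12 and 8 of the 180 wild-type reads of the class. In rdr2 they had 0, 2, 0, 1 and 0 of its 36 reads. They thus met the minimum of 20 reads through rdr6 and wild type, and Cluster_5382 through wild type alone. That all 5 were lower is therefore no separate support. The sum of the class thus leans on these few loci, each also described singly.

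In rdr6 against wild type, 4 of the 241 long loci (1.66%, 0.454 to 4.19) were lower and 1 (0.415%, 0.0105 to 2.29) was higher. Over all loci 1.51% were lower and 1.54% were higher, so the share of lower loci was close to the background. The share of higher loci rests on 1 locus, and its interval included the background. The median log2 ratio was -0.23 (-0.34 to -0.14), against 0.10 over all loci (0.07 to 0.14), 0.02 in loci of over 200 and up to 1000 bp and 0.25 in those of over 30 and up to 200 bp. Of the 241 long loci, 154 lay below wild type and 87 above it. The other scalings gave medians between -0.32 and -0.26 for the long loci and between 0.01 and 0.08 for all loci.

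Cluster_13594, on scaffold_61 from 112856 to 113876, was the clearest of the lower loci. It had 14 reads in rdr6, 74 in rdr2 and 114 in wild type, and rdr6 was 10.9-fold lower than wild type (6.23 to 20.5). It was also the only long locus counted as lower in rdr6 than in rdr2, by 5.09-fold. Its log2 ratio of rdr6 to wild type lay between -3.49 and -3.40 under all scalings.

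Cluster_24924, on scaffold_159 from 866786 to 867989, had 9 reads in rdr6, 26 in rdr2 and 33 in wild type, which put rdr6 4.90-fold below wild type (2.29 to 11.6). Cluster_27756, on scaffold_199 from 403705 to 405450, had 13 reads in rdr6, 25 in rdr2 and 42 in wild type, 4.32-fold lower (2.27 to 8.77). Cluster_5382, on scaffold_18 from 1587907 to 1589196, had 28 reads in wild type and none in either mutant. That put it at least 13.0-fold lower in rdr2 and at least 12.5-fold lower in rdr6, with intervals from 9.85-fold and 9.49-fold. It was the only long locus counted as lower in both mutants. Cluster_5382 met the read minimum for single ratios through its wild-type reads alone, the library in which it was high. Its place among the lower loci of either mutant is therefore no separate support.

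Cluster_19423, on scaffold_102 from 720767 to 721839, was the only long locus counted as higher in rdr6 than in wild type. It had 303 reads in rdr6, 23 in rdr2 and 32 in wild type, a 7.08-fold higher level in rdr6 (4.91 to 10.5) with a log2 ratio between 2.71 and 2.80 under all scalings. The next highest did not reach 4-fold. Cluster_4529 on scaffold_15 had 380 reads in rdr6, 55 in rdr2 and 80 in wild type, a ratio to wild type of 3.55 (2.79 to 4.58). Cluster_38082 on scaffold_455 had 165 reads in rdr6, 16 in rdr2 and 37 in wild type, a ratio of 3.34 (2.32 to 4.90).

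Just short of the limit on the lower side, Cluster_534 on scaffold_2 had 118 reads in rdr6, 213 in rdr2 and 319 in wild type, which put rdr6 3.61-fold below wild type (2.92 to 4.50). Cluster_38182 on scaffold_461 had 73 reads in rdr6, 143 in rdr2 and 180 in wild type, 3.30-fold lower in rdr6. In both, rdr2 stood between rdr6 and wild type in RPM. Their log2 ratios of rdr2 to wild type were -1.05 and -0.80, above the median of the long loci. The place of rdr2 below wild type there thus rests on the scaling.

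Set directly against rdr2, rdr6 was higher at 35 of the 241 long loci (14.5%) and lower at 1 (0.415%). Over all loci 31.6% were higher and 1.01% were lower. The median log2 ratio of rdr6 to rdr2 was 0.91 (0.75 to 1.02), against 1.48 over all loci. Of the 35 higher loci, 22 were also lower in rdr2 than in wild type, a count that shares the rdr2 library. The split of lower and higher loci was 12 and 11 by TMM, 16 and 10 by median-of-ratios, and 18 and 7 by reads outside the top 1%. The shares lower were 4.98%, 6.64% and 7.47%, near the 4.01%, 4.70% and 5.71% over all loci. The shares higher were 4.56%, 4.15% and 2.90%, below the 12.4%, 10.1% and 8.00% over all loci. The medians of the long loci under these scalings were -0.18, -0.34 and -0.55. The direction of the typical long locus in this comparison thus turned with the scaling.

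Across the 294 long loci, the RPM per kb of a locus was ranked similarly in the 3 libraries. Spearman's rho was 0.919 between rdr2 and wild type, 0.926 between rdr6 and wild type and 0.872 between rdr6 and rdr2. These loci share the libraries and their depth, so the values only describe the ranking.

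Most long loci had another locus close by. The gap to the nearest locus of any length had a median of 309 bp (quartiles 241 and 732, from 200 to 47220), and 193 of 294 (65.6%) had one within 500 bp. Loci of over 200 and up to 1000 bp had a median gap of 372 bp and those of 30 bp or less a median of 1793 bp. Where consecutive loci no more than 10 kb apart are taken as a neighbourhood, the 294 long loci fell into 240 neighbourhoods. Of these, 204 held 1 long locus, 25 held 2 and 11 held 3 or more, and 19 long loci stood alone.

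The neighbourhoods with most long loci were large and mostly poor in reads. The 11 with 3 or more held 40 long loci, a median of 20 loci of any length and a median of 4.12 reads per covered kb over the 3 libraries. Neighbourhoods with 1 long locus had a median of 185 reads per covered kb and those with 2 a median of 241. The median log2 ratio of rdr2 to wild type was -3.04 over the 10 examined neighbourhoods with 3 or more, or -2.33 with the 1 that had no read in rdr2 at its floor. It was -1.03 with 2 long loci, -1.21 with 1 and -1.42 with none. Under the other scalings the first of these was -2.04, -1.82 and -1.67, against -0.43, -0.20 and -0.06 in neighbourhoods with none.

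The neighbourhood on scaffold_250, from 394787 to 466615, held 6 long loci among 67 and had 12 reads in rdr2, 47 in rdr6 and 49 in wild type, 5.67-fold lower in rdr2 than in wild type (2.97 to 11.7). On scaffold_446, from 168700 to 187038, 5 of 19 loci were long, with 1 read in rdr2, 19 in rdr6 and 20 in wild type. On scaffold_83, from 353376 to 413285, 4 of 52 were long, with 10 reads in rdr2, 141 in rdr6 and 97 in wild type, 13.5-fold lower in rdr2 (7.01 to 29.0). Each of these regions held fewer reads in rdr2 than in the other libraries, and rdr6 and wild type stood closer together. These sums include loci described singly above. Cluster_30994 had 21 of the wild-type reads on scaffold_250, and Cluster_16911 had 50 of those on scaffold_83. The loci over 3000 bp, the sparsest class by reads per kb and these neighbourhoods thus share loci, Cluster_30994 being in each, and are not separate results.

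On scaffold_32, from 997817 to 1039339, 4 of 31 loci were long, with 4 reads in rdr2, 62 in rdr6 and 43 in wild type, 14.9-fold lower in rdr2 (5.42 to 57.2). On scaffold_18, from 1576403 to 1601515, 3 of 20 were long, with 17 reads in rdr2, 162 in rdr6 and 154 in wild type, 12.6-fold lower (7.60 to 22.1). That region holds both Cluster_5379 and Cluster_5382. On scaffold_167 there was 1 read in rdr2, 8 in rdr6 and 8 in wild type, and on scaffold_356 there was none in rdr2, 20 in rdr6 and 10 in wild type.

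Other neighbourhoods of this kind differed less. On scaffold_273 the reads were 11 in rdr2, 23 in rdr6 and 13 in wild type, and the interval of the ratio of rdr2 to wild type included equal level. On scaffold_265 they were 7 in rdr2, 13 in rdr6 and 15 in wild type. On scaffold_79, from 852543 to 879970, they were 267 in rdr2, 237 in rdr6 and 323 in wild type, with a ratio to wild type of 0.549 in rdr6 (0.462 to 0.651). On scaffold_419, from 75401 to 91252, they were 613 in rdr2, 1130 in rdr6 and 655 in wild type, 1.48-fold lower in rdr2 (1.33 to 1.66) and 1.29 times wild type in rdr6 (1.17 to 1.42).

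**Figure D5:**
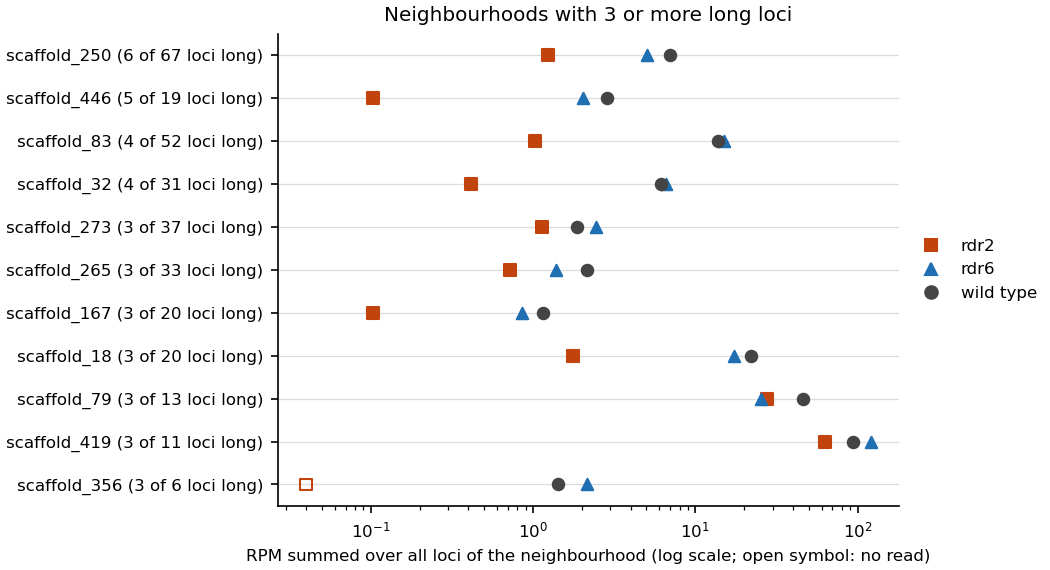
RPM summed over all loci of each of the 11 neighbourhoods with 3 or more long loci (log axis), in rdr2, rdr6 and wild type, with an open symbol for no read. Rdr2 lies leftmost in 10 of the 11 rows, the exception being scaffold_79, where rdr6 does.

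Summed over the 8 neighbourhoods of these 11 with under 20 reads per covered kb, a limit chosen after the values were seen, there were 46 reads in rdr2, 333 in rdr6 and 255 in wild type. Rdr2 was 7.69-fold lower than wild type (5.60 to 10.8), while the ratio of rdr6 to wild type was 0.977 (0.827 to 1.15). The log2 ratio of rdr2 to wild type was -2.94 by RPM and -1.95, -1.72 and -1.58 under the other scalings. The other 3 neighbourhoods were those on scaffold_18, scaffold_79 and scaffold_419. Together they had 897 reads in rdr2, 1529 in rdr6 and 1132 in wild type, 1.75-fold lower in rdr2 (1.60 to 1.91). That sum turned direction under the other scalings, with log2 ratios of 0.19, 0.41 and 0.56. Most of its reads came from scaffold_79 and scaffold_419. The sum does not describe scaffold_18, which was far lower in rdr2, as given above.

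Loci beside a lower long locus were lower in some cases. Of 127 distinct pairs of directly neighbouring loci within 10 kb that could both be examined and of which at least 1 was long, 17 held a long locus lower in rdr2. In 7 of these 17 both loci were lower. In the other pairs, only the neighbour was lower in 20 and neither locus was lower in 90. Among all loci of the series, of any length, 26.2% were lower. In 3 of the 7 both loci were long, namely Cluster_2289 with Cluster_2290, Cluster_8400 with Cluster_8401 and Cluster_16911 with Cluster_16912. Under the other scalings, where fewer loci were lower, 1 pair was lower at both loci, of 5 with a lower long locus by TMM and of 4 by each of the other scalings. Loci in a neighbourhood are not independent, and reads of a repeated sequence could be counted at several of them, which was not tested.

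A few long loci on the same scaffold had exactly the same length. This was seen after the values were examined, for 4 of 242 pairs on the same scaffold (1.65%), against 31 of 42829 pairs on different scaffolds (0.0724%). Cluster_4091 and Cluster_4094, each 1227 bp and 26.4 kb apart on scaffold_13, had 247 and 241 reads in rdr2, 660 and 623 in rdr6, and 685 and 674 in wild type. Their counts differed by less than counting error in each library. Cluster_30319 and Cluster_30322, each 1305 bp and 4.42 kb apart on scaffold_240, had 353 and 834 reads in rdr2, 198 and 543 in rdr6, and 319 and 866 in wild type.

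The second of the pair on scaffold_240 was 2.36 times the first in rdr2 (2.08 to 2.68), 2.74 times in rdr6 (2.33 to 3.24) and 2.71 times in wild type (2.38 to 3.096), and both had a log2 ratio of rdr6 to wild type near -1.1, at -1.11 and -1.09. Cluster_21970 and Cluster_21971, each 1059 bp on scaffold_126, had 180 and 32 reads in rdr2, 381 and 109 in rdr6, and 393 and 114 in wild type. Cluster_2159 and Cluster_2164, each 1387 bp on scaffold_6, had no read in rdr2, and at most 3 in rdr6 and 2 in wild type. Whether the loci of a pair share sequence or reads was not tested.

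Loci next to the length limit differed widely in reads on both sides. Just inside it, Cluster_36079 (1001 bp) had no read in rdr2, 1 in rdr6 and 1 in wild type, and Cluster_29239 (1002 bp) had 41, 76 and 71 in the same libraries. Just outside it, Cluster_16754 (1000 bp) had 34 reads in rdr2, 14 in rdr6 and 51 in wild type, and Cluster_6204 (999 bp) had 168, 88 and 128.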

How the data were processed

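Per the labels' protocols, total RNA was depleted of ribosomal RNA, digested with RNase One and made into Illumina small RNA libraries. Bowtie 0.12.9 and SAMtools were applied, per the submitters' processing notes. Not given in the sources used here are the locus caller, build, mapping settings and handling of reads that match several places, so reads of a repeat may count at more than 1 locus or at only some copies. Strand is not given.

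The deposited tables list, per the file headers, raw read counts and RPM values at the same 39975 loci. The count divided by the deposited RPM gave each library total. Ratios are of RPM, with intervals from the share that 1 library has of the reads of both. Loci with 20 or more reads over the 3 libraries were compared. Where 1 library had no read, the interval alone decided and the bound used a floor of 3 reads per library, which leaves out counting error in the library with reads. Log2 ratios had a pseudocount of 0.5 reads, and medians have order-statistic 95% intervals. Alternatives were TMM factors (edgeR 4.0.16, for factors only), median-of-ratios size factors, reads outside the 400 loci with most RPM, limits of 2 for the fold and 1 for the interval together, other read and length minimums, another pseudocount and windows of 5 and 20 kb. The sums under each scaling and the thinning to effective totals were added after seeing the data. Python 3.11.15, numpy 2.4.6, scipy 1.17.1, pandas 2.3.3 and R 4.3.3 were used, and the code was tested on simulated data.

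Named loci were the 5 with most reads and the 5 with most reads per kb in each library, the 5 longest, the 10 highest and 10 lowest in each mutant by the interval bound nearest to 1, the long loci in the 5 neighbourhoods with most of them (ties included) and 3 on each side of the length limit; neighbours of these and the pairs of equal length were named after their values were seen. The long loci and all lists were chosen with earlier results of these data known. Gene lists stayed empty because the loci carry no names, and the gene table at hand, of another assembly, was not used.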

Additional observations from a re-analysis of the deposited data

How the results depend on the processing

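Scaling and the call limits moved the comparisons with rdr2. For rdr2 against wild type, the share of long loci lower was 4.98% by TMM, 3.73% by median-of-ratios and 3.32% by reads outside the top 1%, and 57.3% when the fold limit was loosened to 2 and the interval bound to 1 together. The share higher was 0.830% by TMM, 1.66% by median-of-ratios and 2.07% by reads outside the top 1%. Over all loci under these 3 scalings, 8.88%, 6.94% and 5.77% were lower and 2.10%, 2.82% and 3.45% higher. The median log2 ratio of the long loci was -0.14, 0.088 and 0.23 under these 3 scalings. For rdr6 against rdr2, the share lower was 4.98%, 6.64% and 7.47%, the share higher 4.56%, 4.15% and 2.90%, and the median -0.18, -0.34 and -0.55. Over all loci 4.01%, 4.70% and 5.71% were lower and 12.4%, 10.1% and 8.00% higher. With the looser limits 3.73% of the long loci were lower and 44.8% higher. Over 1500 bp, with the limits of 4 and 2 kept, 0% were lower and 20.3% higher, against 0.415% and 14.5% of all long loci. For rdr6 against wild type, the looser limits gave 11.2% lower and 4.98% higher, and loci over 1500 bp, with the limits of 4 and 2 kept, gave 0% higher. Without the 2 loci with most reads, an alternative chosen after seeing the data, the pooled log2 ratio was -0.69 for rdr2 against wild type (1.01 with them), 0.091 for rdr6 against wild type (-0.12) and 0.78 for rdr6 against rdr2 (-1.13). Added in the same way, the 3 scalings in the order above gave 2.00, 2.23 and 2.37 for rdr2 against wild type over all long loci, 0.31, 0.53 and 0.68 without the 2, and -0.11, 0.11 and 0.26 without the 9 with most reads (-1.11 by RPM). For rdr6 against wild type they gave -0.21, -0.15 and -0.21 over all, 0.0026, 0.064 and -0.0024 without the 2, and -0.29, -0.23 and -0.30 without the 9 (-0.21 by RPM). Over 1500 bp, detection in rdr2 was 78.0%, and the medians were 2.35 RPM per kb in rdr2, 4.65 in rdr6 and 5.38 in wild type. By reads outside the top 1% the rdr2 median was 8.55 RPM per kb, with wild type kept at its RPM scale. Long loci without a neighbour were 37 at 5 kb and 4 at 20 kb (19 at 10 kb), and neighbourhoods with 3 or more long loci were 17 at 20 kb (11 at 10 kb). The cause of these changes was not tested. No paired analysis was possible because each genotype has 1 library. The 1 library per genotype limits every statement, and loci with under 20 reads limit single ratios.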
